A study of Homo sapiens with 2 samples.

Results

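The zinc finger (ZNF) genes of human chromosome 19 were described in RNA sequencing of the renal carcinoma line 786-O with its SETD2 gene disrupted and of the 786-O line with intact SETD2. Members were the rows of the gene tables on chromosome 19 whose symbol is ZNF and a number, with a final letter allowed. Antisense rows, read-through rows, 6 rows with a symbol ending in P and 4 rows recorded as pseudogenes in RefSeq were left out. This gave 238 members of 23375 gene rows, 14.7% of the 1620 rows on the chromosome. The membership rule used names, positions and the RefSeq gene type only, and no measured value.

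The SETD2 knockout group was 1 library from a 786-O line in which SETD2 was targeted with a zinc finger nuclease (ZFN), an engineered enzyme built to cut a chosen DNA sequence. The wild-type group was 1 library from the 786-O line. 786-O is an established line from a clear cell renal carcinoma that has lost VHL function, and both groups share that background, the same growth medium, and medium alone is given as the treatment. Whether the knockout line came from a single clone, and which SETD2 alleles it carries, was not stated in the labels. The question was which ZNF transcripts differed between the lines with disrupted and with intact SETD2. With 1 library a line the differences have no replicate check and no p-value, they describe these libraries and not the conditions in general, and the exact intervals given below cover counting error only.

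Most chromosome 19 ZNF genes encode C2H2 zinc finger proteins, in which a row of finger repeats reads DNA and an N-terminal KRAB domain recruits the corepressor TRIM28 (KAP1). TRIM28 in turn brings the H3K9 methyltransferase SETDB1, HP1 proteins and histone deacetylases, and many of these factors silence transposable elements. The genes arose by tandem duplication and lie in clusters, and the bodies of many of them carry H3K9 trimethylation together with the H3K36 trimethylation that SETD2 places on transcribed genes.

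The knockout library held 50670012 fragments in genes and the wild-type library 62304084. SETD2 itself had 1404 fragments (2.39 RPKM, reads scaled to gene length and library total) in the knockout library, against 4908 fragments (6.79 RPKM) in the wild-type library, a ratio of 0.334 (exact 95% interval 0.314 to 0.354). All 10 markers listed for a renal carcinoma line were detected in both libraries, PAX8 at 30.9 RPKM in the knockout and 43.7 RPKM in the wild type. The 4 leukocyte markers summed to 0.442 CPM (fragments scaled to library size) in the knockout and 0.181 CPM in the wild type, with CD3E at 0 in both. Of these CD79A was counted as higher, with 12 fragments in the knockout and 2 in the wild type, a log2 ratio of 2.52 (ratio interval 1.56 to 64.4). The 4 endothelial markers summed to 0.231 CPM in the knockout and 0.461 CPM in the wild type, with PECAM1 at 0 fragments in the knockout and 1 in the wild type. The 4 fibroblast and pericyte markers summed to 16.1 CPM in the knockout and 8.09 CPM in the wild type. Nearly all of that sum was COL1A1, with 805 fragments in the knockout and 418 in the wild type, while COL1A2 had 0 in the knockout and 14 in the wild type, PDGFRB had 31 in the knockout and 57 in the wild type, and DCN, a defining marker of fibroblasts, had 0 in the knockout and 2 in the wild type.

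The promoters of the 3 members ranked highest by the lower bound of their ratio and of the 2 members counted as lower are shown because these genes mark both ends of the range described below. Each sequence runs from 250 bases before to 50 bases after the first RefSeq start listed for the gene (GRCh38.p14), 5′ to 3′ on the gene's own strand, with CpG dinucleotides in capitals. ZNF536 (chr19:30225342-30225641, plus strand) has 21 CpG, ZNF582 (chr19:56393485-56393784, minus strand) has 30 and ZNF880 (chr19:52369673-52369972, plus strand) has 20, while ZNF772 (chr19:57477517-57477816, minus strand) has 16 and ZNF77 (chr19:2944922-2945221, minus strand) has 22.
ZNF536: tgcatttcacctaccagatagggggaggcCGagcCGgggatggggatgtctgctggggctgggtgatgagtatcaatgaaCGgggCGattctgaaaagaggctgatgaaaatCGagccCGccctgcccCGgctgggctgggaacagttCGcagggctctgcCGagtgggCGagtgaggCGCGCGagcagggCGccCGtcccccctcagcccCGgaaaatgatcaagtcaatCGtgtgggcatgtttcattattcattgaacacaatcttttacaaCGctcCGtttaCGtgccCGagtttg
ZNF582: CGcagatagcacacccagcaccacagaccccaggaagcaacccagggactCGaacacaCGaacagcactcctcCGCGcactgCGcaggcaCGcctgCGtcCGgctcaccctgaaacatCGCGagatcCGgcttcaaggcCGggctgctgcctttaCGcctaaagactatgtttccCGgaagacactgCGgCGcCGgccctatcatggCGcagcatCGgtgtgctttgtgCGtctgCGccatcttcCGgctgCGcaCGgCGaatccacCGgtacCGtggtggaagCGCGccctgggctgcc
ZNF880: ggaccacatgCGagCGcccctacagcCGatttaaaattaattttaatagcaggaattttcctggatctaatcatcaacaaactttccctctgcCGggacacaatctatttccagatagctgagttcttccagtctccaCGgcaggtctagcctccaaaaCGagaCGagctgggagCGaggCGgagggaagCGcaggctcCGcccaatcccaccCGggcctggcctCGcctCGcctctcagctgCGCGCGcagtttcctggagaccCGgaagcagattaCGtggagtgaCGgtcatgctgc
ZNF772: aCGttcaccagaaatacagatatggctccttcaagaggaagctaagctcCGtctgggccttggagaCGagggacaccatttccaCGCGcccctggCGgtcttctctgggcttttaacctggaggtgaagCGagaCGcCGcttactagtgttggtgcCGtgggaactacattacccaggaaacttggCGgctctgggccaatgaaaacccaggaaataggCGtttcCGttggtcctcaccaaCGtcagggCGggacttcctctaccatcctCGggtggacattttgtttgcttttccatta
ZNF77: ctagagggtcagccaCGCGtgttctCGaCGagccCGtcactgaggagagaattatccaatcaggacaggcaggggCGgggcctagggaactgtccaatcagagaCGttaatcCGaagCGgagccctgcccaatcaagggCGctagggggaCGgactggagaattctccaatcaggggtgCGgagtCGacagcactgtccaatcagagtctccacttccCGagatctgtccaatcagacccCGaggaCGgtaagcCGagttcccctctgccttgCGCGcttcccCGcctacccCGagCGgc

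A RefSeq promoter was found for 210 members. They held a median of 20 CpG, against 14 over all 27305 RefSeq promoters of the same length, and 93.8% held at least 10 CpG, against 56.0% of all promoters. The motif CCGGAAG, the core of sites bound by ETS factors, was found on either strand in 94 member promoters (44.8%) and in 10.7% of all promoters. It occurs 2 times in the ZNF582 sequence and 1 time in that of ZNF880, and not in the other 3. The motif CCAAT, bound by the factor NF-Y, was found on either strand in 52.9% of member promoters and 35.7% of all promoters. The ZNF77 promoter holds 6 copies, visible above as repeats of ccaatca, and only 0.403% of all promoters held 5 or more. The ZNF880 and ZNF772 promoters hold 1 copy each. Part of each CCGGAAG match is a CpG, so this motif and the CpG count overlap, and these matches describe letters and not binding.

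Of the 238 members, 227 had at least 10 deposited reads over both libraries and entered the comparison. Of these, 33 were higher in the knockout library and 2 were lower, where a gene was counted when the whole exact interval of its ratio lay beyond 1.5-fold. The share higher was 14.5%, against 10.4% of the 16894 genes tested, and the share lower was 0.881%, against 9.17%. Beyond 2-fold, 14 members were higher and 0 lower, against 5.75% of all genes higher and 3.37% lower. The higher share was thus a little above that of all genes and the lower share well below it. With total count or upper quartile scaling 42 members were higher and 1 lower. With ratios taken relative to the median of the other chromosome 19 genes 27 were higher and 6 lower. No share over all genes was taken under these settings, so these counts cannot be set against one. Among the 119 members with under 1% of their 50-base transcript windows found in another gene, 18 were higher and 1 lower. The 33 higher members had ratios of 1.67 to 53.7, with a median of 2.26. In bulk RNA, a lower value from fewer expressing cells and one from less RNA per cell cannot be told apart.

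The lower part and the middle of the members' distribution lay above those of all genes, while the upper ends crossed. Their median log2 ratio was 0.23, or 1.17-fold, with an interquartile range of -0.02 to 0.58, and 169 of 227 (74.4%) were above 0. The median was 0.08 for 248 ZNF genes on other chromosomes, 0.15 for 945 other genes of chromosome 19 and 0.02 for all genes tested. Relative to the other chromosome 19 genes the members' median was 0.080. ZNF genes elsewhere were counted 25 times as higher and 25 times as lower, 10.1% in each direction. The other chromosome 19 genes were counted as higher 114 times and as lower 41 times, 12.1% and 4.34%. Without the members, chromosome 19 had the seventh highest median of the 24 chromosomes, whose medians ran from -0.50 on chromosome 7 to 0.23 on chromosome 16.

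**Figure D1:**
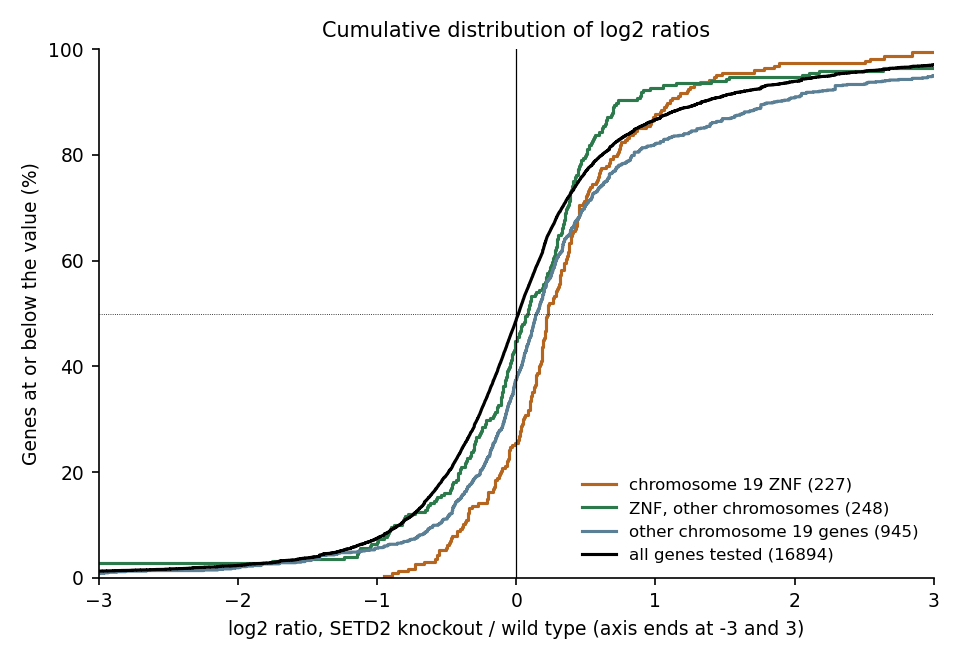
Cumulative share of genes (vertical axis, %) at or below each log2 ratio of SETD2 knockout over wild type (horizontal axis) for the 227 chromosome 19 ZNF members, 248 ZNF genes of other chromosomes, 945 other genes of chromosome 19 and all 16894 genes tested. The member curve lies furthest right at the midpoint, with a median of 0.23, and starts close to -1, while the other curves have long lower tails.

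Most members had an interval on the higher side of 1. The interval lay wholly above 1 for 126 members (55.5%) and wholly below 1 for 33 (14.5%), while 68 held 1. Over all genes the shares were 34.9% above and 35.2% below. Fragments summed over the members made up 0.256% of the knockout library and 0.202% of the wild-type library, which after scaling was 2494 CPM in the knockout and 2073 CPM in the wild type, a ratio of 1.20 (1.19 to 1.21). The difference was small for many of them, and 101 members (44.5%) had a ratio between 0.8 and 1.25.

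Other genes with the members' GC content or level had medians closer to 0. Genes whose transcript GC content lay within the central 80% of the members' range (37.6% to 55.8%) had a median log2 ratio of -0.02 over 10287 genes. Genes within the members' central RPKM range (0.316 to 4.25 RPKM) had a median of 0.05 over 4811 genes, with 13.4% higher and 10.2% lower. Within both ranges together the median was 0.02 over 2867 genes, with 12.6% higher and 10.7% lower.

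The median deposited level of the members was 1.61 RPKM in the knockout library and 1.32 RPKM in the wild-type library, against 0.750 RPKM in the knockout and 0.637 RPKM in the wild type over all gene rows, many of which were near 0. The upper quartile of the members was 2.83 RPKM in the knockout and 2.29 RPKM in the wild type, against 7.77 RPKM in the knockout and 7.69 RPKM in the wild type over all rows. Of the members, 167 reached 1 RPKM in the knockout, against 142 in the wild type. Of these, 139 reached it in both, 28 in the knockout alone and 3 in the wild type alone. The order of the members by level was much the same in both libraries (Spearman's rho 0.92 across 227 genes, which share both libraries). The most abundant member was ZNF146, a protein made almost wholly of zinc fingers and without a KRAB domain, at 20.6 RPKM in the knockout and 17.8 RPKM in the wild type. ZNF83 followed at 11.8 RPKM in the knockout and 10.5 RPKM in the wild type. The ratios of these 2 were 1.09 (1.06 to 1.14) and 1.06 (1.01 to 1.12), so the levels of these 2 differed little. Other abundant members were ZNF317, at 9.26 RPKM in the knockout and 6.46 RPKM in the wild type, ZNF787, at 8.67 RPKM in the knockout and 6.83 RPKM in the wild type, and ZNF428, at 7.82 RPKM in the knockout and 6.31 RPKM in the wild type. Among the 10 members with the highest mean level, ZNF841 and ZNF302 were counted as higher, and ZNF358 had the lowest ratio, 0.727 (0.664 to 0.797).

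**Figure D2:**
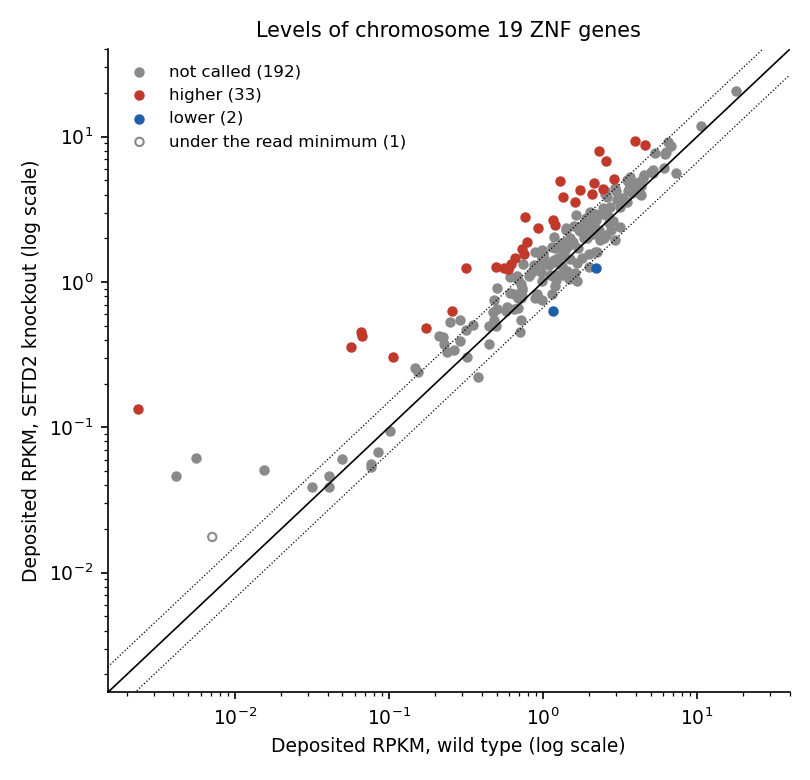
Deposited RPKM of each member in the SETD2 knockout library (vertical axis, log scale) against the wild-type library (horizontal axis, log scale), with the line of equal values and dotted lines at 1.5-fold, for members above 0 in both. ZNF146 and ZNF83 lie close to the line of equal values, ZNF841 and ZNF302 lie beyond 1.5-fold, and the 33 higher members spread from below 0.01 RPKM in the wild type up to ZNF302.

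Low members set the lower limit of what could be seen. The 11 members under the read minimum had between 0 and 2 fragments in either library. Of these, ZNF177, ZNF208, ZNF729, ZNF99 and ZNF135 had 0 fragments in both libraries. A count of 0 allows up to 3 fragments, or 0.0577 CPM in the knockout library and 0.0494 CPM in the wild-type library. In all, 6 members had 0 fragments in the knockout and 9 in the wild type, and no member had 0 in one library with 10 or more fragments in the other.

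In order of start position, members separated by a gap of more than 1 Mb were placed in different groups, which gave 9 clusters of 5 or more members holding 227 of the 238, with 11 scattered members. The clusters are named C1 to C9 in order along the chromosome, with hg19 positions. Their medians differed, as the plot of log2 ratios by cluster shows. C7 (44.04 to 45.58 Mb) had the highest median log2 ratio, 0.54, with 21 of 22 tested members above 0 and 7 counted as higher. C5 (35.17 to 35.45 Mb, 5 members) had a median of 0.50, C8 (52.07 to 54.08 Mb, 37 tested) of 0.38 with 6 higher, and C4 (19.78 to 24.31 Mb, 28 tested) of 0.36 with 8 higher and 26 above 0. C6 (36.67 to 38.27 Mb, 25 members) had a median of 0.29 with 4 higher, C2 (7.07 to 9.88 Mb, 14 tested) of 0.21 with 1 higher, and C3 (11.59 to 12.74 Mb, 25 members) of 0.19 with 1 higher. C1 (2.82 to 2.94 Mb, 4 tested) was the cluster with a median below 0, at -0.26. C9 (55.99 to 58.99 Mb, 57 tested), the largest, had a median of 0.02 with 30 above 0, 4 higher and 1 lower. The share of tested members higher was 31.8% in C7, 28.6% in C4, 20% (1 member) in C5, 16.2% in C8 and 16% in C6. It was 7.14% in C2, 7.02% in C9, 4% in C3 and 0% in C1, against 10.4% of all genes tested.

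**Figure D3:**
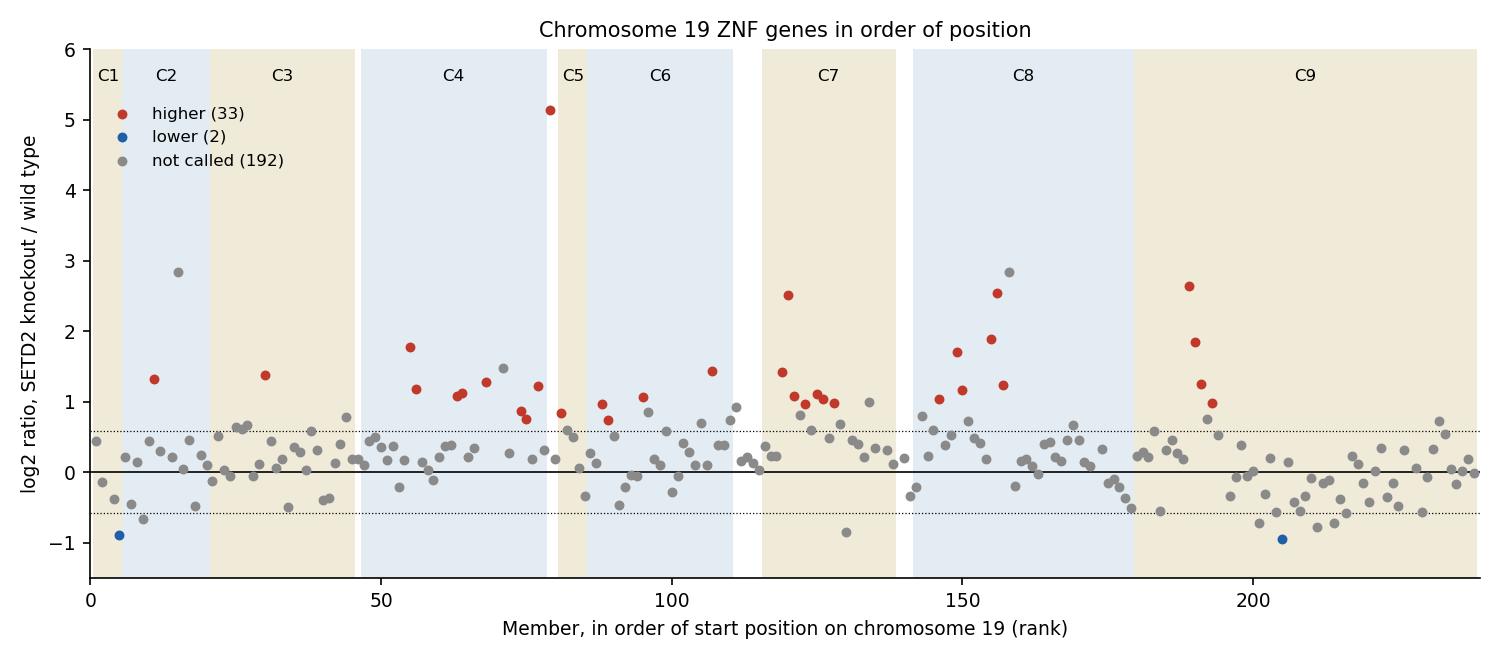
Log2 ratio of SETD2 knockout over wild type (vertical axis) for the 227 tested members in order of start position along chromosome 19 (horizontal axis, rank among 238), with clusters C1 to C9 shaded, points coloured by call and dotted lines at 1.5-fold. Some higher members stand side by side in C4, C7, C8 and the first part of C9, and the second part of C9 lies mostly below 0.

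Neighbouring members were somewhat closer in ratio than members in general. Over 202 adjacent pairs in a group, of members with at least 50 fragments over both libraries, 150 (74.3%) had log2 ratios of the same sign, against 62.3% of all pairs of these 216 members. The median difference between the log2 ratios of neighbours was 0.37, against 0.48 over all pairs, and Spearman's rho between neighbours was 0.45. This is a description across genes of 2 libraries, and neighbours share both libraries and often sequence. Of the 33 higher members, 21 stood next to another higher member of the same cluster. No such count was made over all genes, so whether 21 is more than the clusters' shares of higher members would give was not tested. The other rows inside the same spans include 11 zinc finger genes under other symbols, such as HKR1, ZFP14, ZFP30 and ZFP82 in C6, ZFP112 in C7 and ZFP28 in C9. Without these, the median log2 ratio of the other rows was 0.28 in C7 (26 genes), 0.69 in C8 (10 genes), 0.91 in C4 (4 genes), 0.49 in C6 (6 non-coding rows, some of which overlap members), 0.54 in C9 (20 genes) and 0.06 in C2 (37 genes). The part of position in the members' ratios was not tested.

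**Figure D4:**
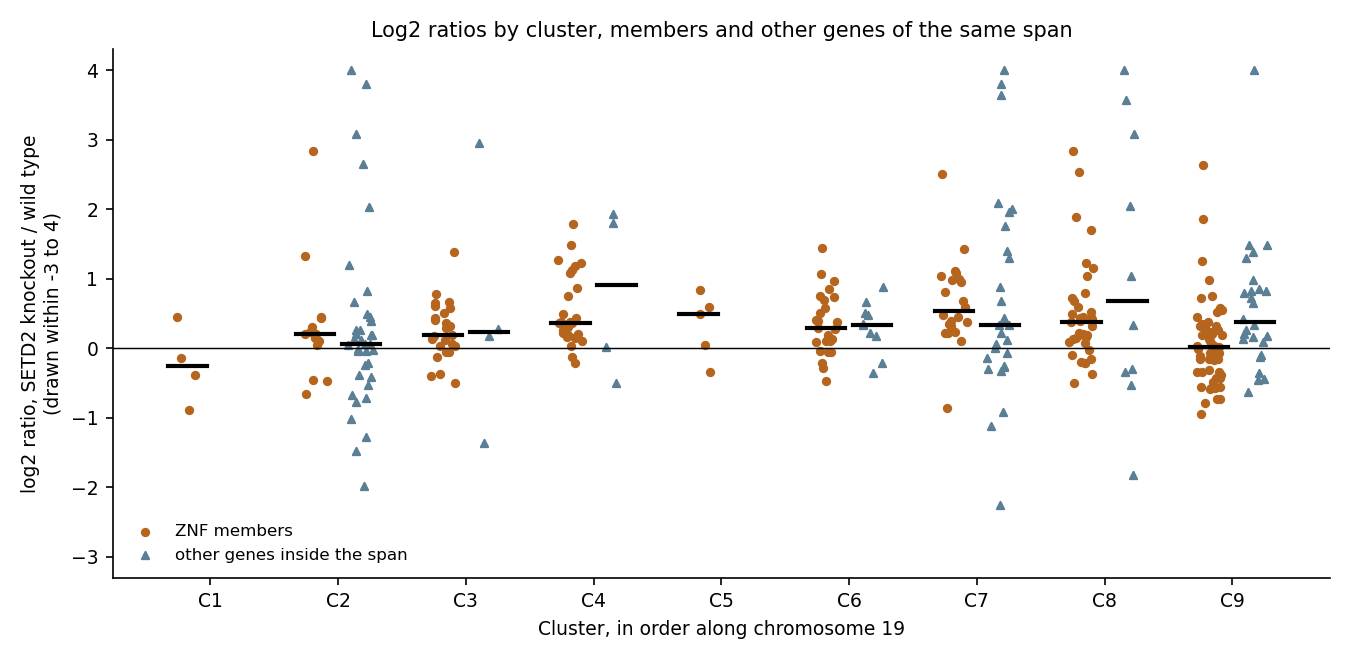
Log2 ratio of SETD2 knockout over wild type (vertical axis, points beyond -3 or 4 drawn at these limits) for the ZNF members (circles) and the other tested genes inside the same span, zinc finger genes under other symbols included (triangles), of each cluster in order along chromosome 19 (horizontal axis), with medians as bars. Member medians run from -0.26 in C1 to 0.54 in C7, and the other genes of C2 and C7 spread more widely than the members there.

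C9 was not uniform. With a gap of 0.5 Mb as the limit it fell into a first part from 55.99 to 57.18 Mb (ZNF628 to ZNF835) and a second part from 57.70 to 58.99 Mb (ZNF264 to ZNF446). In the first part the median log2 ratio was 0.45, 14 of 15 tested members were above 0 and 4 were higher, and the summed ratio was 1.51 (1.46 to 1.57). In the second part the median was -0.09, 16 of 42 were above 0, none was higher and 1 was lower. The summed ratio there was 0.920 (0.901 to 0.940). The share higher was 26.7% in the first part and 0% in the second, against 10.4% of all genes tested. The share lower was 0% in the first part and 2.38% in the second, against 9.17% of all genes tested. Without zinc finger genes under other symbols, the 12 other genes in the first span had a median of 0.74 and the 8 in the second span one of 0.18. The first part holds GC-rich members such as ZNF628 and ZNF579 beside the GC-poorer ZNF582 to ZNF470, and its 4 higher members all belong to the second kind. The same limit split C4 as well, but there both parts had medians above 0. In ZNF91 to ZNF254 (23.54 to 24.31 Mb) all 5 members were above 0 and 3 were higher, with a median of 0.75. In the rest of C4 (19.78 to 22.97 Mb) 21 of 23 tested members were above 0 and 5 were higher, with a median of 0.36. The share higher was 60% in the former and 21.7% in the latter, against 10.4% of all genes tested.

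Among the higher members, ZNF536 had by far the highest ratio and the fewest fragments over both libraries. ZNF536, a large regulator that restrains neuronal differentiation, had 46 fragments in the knockout library, against 1 fragment in the wild-type library, a ratio of 53.7 with a wide interval of 9.16 to 2165. It is the single higher member outside the clusters and is without a KRAB pattern, and at 0.134 RPKM in the knockout its level was still far below that of most members.

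In the first part of C9, 4 of 5 successive members were higher. ZNF582, whose promoter is a known methylation marker in cervical cancer, had 72 fragments in the knockout and 13 in the wild type, a ratio of 6.46 (3.55 to 12.7). Its neighbour ZNF583 had 921 fragments in the knockout and 297 in the wild type, or 3.62-fold (3.17 to 4.14). ZNF667 had 729 in the knockout and 357 in the wild type, or 2.38-fold (2.10 to 2.71). These members follow each other on hg19 from 56894648 (start of ZNF582) to 56988770 (end of ZNF667), with very different levels, 0.450, 4.96 and 2.35 RPKM in the knockout library for ZNF582, ZNF583 and ZNF667. ZNF471, the next member, was at 1.69-fold without passing the call, and ZNF470, the member after it, was higher at 1.98-fold (1.74 to 2.26).

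C8 held another stretch of higher members. ZNF432 had 1422 fragments in the knockout and 508 in the wild type (7.94 RPKM against 2.30 RPKM), or 3.27-fold (2.95 to 3.62), the largest change among members above 5 RPKM. Beside it ZNF841 had 2511 fragments in the knockout and 1311 in the wild type, or 2.23-fold (2.09 to 2.39). Further along, ZNF610 had 208 fragments in the knockout and 65 in the wild type, or 3.73-fold (2.81 to 5.01). ZNF880 had 67 in the knockout and 13 in the wild type, or 6.01-fold (3.29 to 11.9). ZNF528 followed with 1198 in the knockout and 594 in the wild type, or 2.35-fold (2.13 to 2.60). These last 3 are adjacent members. At the other end of C8, ZNF331, an imprinted gene, had 682 fragments in the knockout and 1128 in the wild type, a ratio of 0.705 (0.640 to 0.776), which did not pass the call.

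C7, on 19q13.31, had the broadest shift. ZNF283 had 688 fragments in the knockout and 299 in the wild type, or 2.68-fold (2.34 to 3.08). ZNF404 had 46 in the knockout and 9 in the wild type, or 5.96-fold (2.88 to 13.9). ZNF45 had 1303 in the knockout and 719 in the wild type, or 2.11-fold (1.93 to 2.32). These 3 are adjacent members, and ZNF155, ZNF222, ZNF223 and ZNF224 in the same cluster were higher at 1.95, 2.16, 2.05 and 1.98-fold. ZNF224, a repressor of aldolase A transcription, overlaps a non-coding row, so its reads may include those of that gene. ZNF234 stood apart with 71 fragments in the knockout and 150 in the wild type, a ratio of 0.552 (0.410 to 0.737), and was the 1 tested member of C7 below 0. ZNF180, also in C7, was at 1.24-fold (1.10 to 1.41).

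In C4, a cluster of primate-expanded genes, ZNF737 had 1626 fragments in the knockout and 551 in the wild type, or 3.44-fold (3.12 to 3.80). Of its 50-base windows 10.9% are shared with other genes, so some of its reads may come from paralogs. Its neighbour ZNF626 had 894 in the knockout and 461 in the wild type, or 2.26-fold (2.02 to 2.54), and ZNF257 had 310 in the knockout and 149 in the wild type, or 2.43-fold (1.99 to 2.97). ZNF91, which represses SVA retrotransposons, had 1514 in the knockout and 966 in the wild type, or 1.83-fold (1.69 to 1.98). ZNF93, which represses young LINE-1 elements, had 842 in the knockout and 873 in the wild type, or 1.12-fold (1.02 to 1.24), and was not counted. ZNF429, ZNF493, ZNF675 and ZNF726 were the other higher members of C4, at 2.18, 2.12, 1.68 and 2.36-fold.

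In the remaining clusters, 4 of 25 members of C6 (16%), 1 of 5 of C5 (20%), 1 of 14 of C2 (7.14%) and 1 of 25 of C3 (4%) were higher. The share over all genes tested was 10.4%, above that of C2 and C3. ZNF699 in C2 had 991 fragments in the knockout and 462 in the wild type, a log2 ratio of 1.32 (ratio interval 2.24 to 2.80). ZNF763 in C3 had 88 in the knockout and 39 in the wild type, or 2.63-fold (1.79 to 3.94). ZNF302 in C5 had 1593 in the knockout and 1039 in the wild type, or 1.79-fold (1.65 to 1.94), with 11.9% of its windows shared, the largest share among the higher members. In C6, ZNF540 had 75 in the knockout and 32 in the wild type, or 2.73-fold (1.78 to 4.27), and it overlaps ZNF571 and a non-coding row. ZNF790, ZNF566 and ZNF260 in C6 were higher at 2.10, 1.96 and 1.67-fold, and ZNF790 overlaps ZNF345. ZNF350 in C8, also called ZBRK1, a BRCA1-binding repressor, was higher at 2.06-fold. The 13 higher members outside the naming rule are named here because they passed the call. Just outside the call, ZNF577, ZNF235 and ZNF490 had lower interval bounds of 1.48, 1.48 and 1.47. ZNF560 in C2 and ZNF534 in C8 had 9 fragments each in the knockout and 1 each in the wild type, with intervals of 1.45 to 460, and were not counted.

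Only 2 members were lower. ZNF772 had 240 fragments in the knockout and 541 in the wild type, a ratio of 0.517 (0.443 to 0.603), and lies in the second part of C9. ZNF77 had 177 in the knockout and 384 in the wild type, a ratio of 0.538 (0.447 to 0.644), and lies in C1. The next lowest by the bound nearest to 1 were ZNF530 at 0.582 (0.491 to 0.688) and ZNF551 at 0.604 (0.526 to 0.691), which missed the call narrowly. Of the 15 lowest members by that bound, 9 lie in the second part of C9, among them ZNF547, ZNF549, ZNF749, ZNF264, ZNF587B and ZNF274. ZNF274, which recruits SETDB1 to the 3′ ends of ZNF genes, had 317 fragments in the knockout and 550 in the wild type, a ratio of 0.672 (0.584 to 0.773). ZNF558, ZNF561 and ZNF358 in C2, ZNF331 in C8 and ZNF234 in C7 complete the lowest members.

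**Figure D5:**
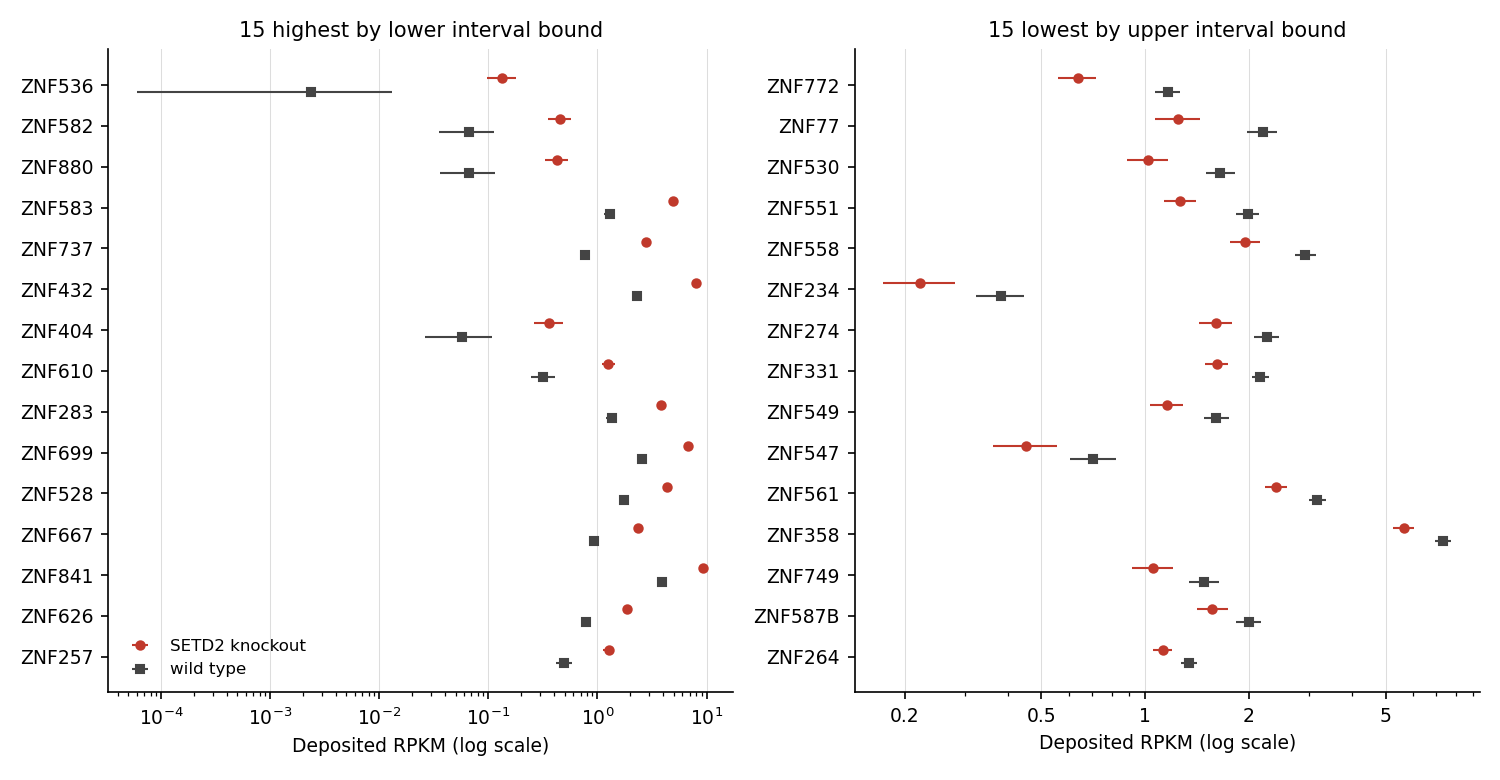
Deposited RPKM (horizontal axis, log scale, with 95% Poisson counting intervals) in the SETD2 knockout library (circles) and the wild-type library (squares) for the 15 highest (left) and 15 lowest (right) members, ranked by the interval bound nearest to 1. ZNF582, ZNF880 and ZNF404 stay below 1 RPKM in both libraries, while ZNF432 and ZNF841 reach 7.94 and 9.31 RPKM in the knockout, and the low side spans smaller ratios.

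The remaining members that the naming rule takes had ratios closer to 1. ZNF554 and ZNF581 were at 1.36-fold (1.05 to 1.77) and 1.37-fold (1.22 to 1.54), ZNF266 at 1.16-fold, and ZNF700 and ZNF101, the most abundant members of C3 and C4, at 1.08-fold and 1.07-fold. ZNF714, ZNF792 and ZNF799, the lowest of C4, C5 and C3 by the bound nearest to 1, had ratios of 0.922, 0.791 and 0.757, and 34.5% of the windows of ZNF799 are shared.

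Other members with a known role did not pass the call, and the intervals of ZNF382 and ZNF417 lay below 1. ZNF304 was at 1.02-fold (0.911 to 1.13). ZNF808, whose loss in people impairs pancreas formation, was at 1.12-fold (0.991 to 1.26). ZNF587 and ZNF417, near-identical paralogs that repress HERV-K elements, were at 1.01-fold (0.952 to 1.07) and 0.786-fold (0.689 to 0.896), with 20.2% and 38.2% of their windows shared, so their separate values are uncertain. ZNF382 had 107 fragments in the knockout and 173 in the wild type, a ratio of 0.721 (0.561 to 0.923). ZNF671, often methylated in carcinomas, had 9 in the knockout and 16 in the wild type, a ratio of 0.656 (0.256 to 1.58), too few fragments to tell a difference of either direction.

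Sequence shared with other genes was low in the higher members about as often as in members in general. Of the 33 higher members, 18 had under 1% of their 50-base windows in another gene. Over all 238 members, 119 were under 1%, 30 were at 10% or more, and the highest was ZNF98 at 58.1%. Across the 227 tested members, Spearman's rho with the log2 ratio was -0.09 for the shared share, 0.09 for the number of finger repeats, -0.08 for gene length, -0.05 for promoter CpG (202 members) and -0.31 for transcript GC content, so GC-poor members tended to have the higher ratios. These describe genes that share both libraries.

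Members with and without a KRAB pattern had like medians, but the share higher was larger with the pattern. A KRAB pattern was found in 199 members and not in 39, and the number of finger repeats ran from 0 to 36 with a median of 12. The median log2 ratio was 0.22 with the pattern (190 tested, 31 higher, 2 lower) and 0.23 without it (37 tested, 2 higher, 0 lower). The share higher was 16.3% with the pattern and 5.41% without it, against 10.4% of all genes tested. The share lower was 1.05% with it and 0% without it, against 9.17%. The higher members without the pattern were ZNF536 and ZNF260. Tested members of the classes also differed in transcript GC content, with a median of 42.2% with the pattern and 59.6% without it. The part of GC content in the shares higher was not tested. On other chromosomes, ZNF genes with the pattern had a median of 0.03 (87 tested, 3 higher, 10 lower) and those without it 0.11 (161 tested, 22 higher, 15 lower). There the share higher was 3.45% with and 13.7% without the pattern, and the share lower 11.5% and 9.32%. The difference between chromosomes was not tested. By mean level, members under 0.5 RPKM had a median of 0.48 (35 tested), those from 0.5 to 2 RPKM one of 0.21 (101 tested) and those at 2 RPKM or more one of 0.21 (91 tested).

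Few genes passed the call in a list of proteins that KRAB factors work through or that act on H3K9 methylation, called cofactors here. Of 36 listed cofactors, 35 were tested, with a median log2 ratio of -0.03, 1 higher and 1 lower, against 10.4% of all genes higher and 9.17% lower. The median turned to 0.05 with total count scaling. DNMT3B, a de novo DNA methyltransferase, was higher, with 2324 fragments in the knockout and 1162 in the wild type, or 2.33-fold (2.17 to 2.51). SUV39H2, an H3K9 methyltransferase, was lower, with 948 in the knockout and 2236 in the wild type, a ratio of 0.494 (0.458 to 0.534). TRIM28, the corepressor itself, was at 77.5 RPKM in the knockout and 77.9 RPKM in the wild type, a ratio of 0.942 (0.922 to 0.962). CBX3, an HP1 protein, was at 80.6 RPKM in the knockout and 102 RPKM in the wild type, or 0.749-fold. HDAC1, a histone deacetylase, was at 50.7 RPKM in the knockout and 66.1 RPKM in the wild type. RBBP7, a histone-binding subunit of deacetylase complexes, was at 45.3 RPKM in the knockout and 52.8 RPKM in the wild type. SETDB1, given after its values were seen, was at 6.16 RPKM in the knockout and 6.73 RPKM in the wild type.

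The rows left out behaved variably. The pseudogene row ZNF826P had 70 fragments in the knockout and 8 in the wild type, or 10.2-fold (4.90 to 24.6), and ZNF542 had 165 in the knockout and 49 in the wild type, or 3.93-fold (2.84 to 5.52). ZNF788 had 253 in the knockout and 533 in the wild type, a ratio of 0.554 (0.475 to 0.644). These 3 were chosen after their values were seen.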

How the data were processed

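Raw read counts and RPKM values per gene were deposited by the authors in a separate table for each library. The build was hg19 and the tools TopHat2 2.0.6, Bowtie and HTSeq, according to the submitters' processing notes. Their settings, gene annotation and strand handling were not given in the sources used here. The deposited RPKM is the count per gene length and library total. All deposited counts were even and were divided by 2 to give fragments, which departs from the design. Rows on Y of 23 genes also listed on X were dropped. Reads matching several places may be counted at each.

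Scaling was by TMM (edgeR 4.0.16, R 4.3.3), using 16894 genes that had 10 or more reads when the libraries were added. Ratios (knockout over wild type) have exact conditional (Clopper-Pearson) 95% intervals, and log2 ratios used 0.5 added fragments. CPM is fragments scaled to the TMM library size. Calls need the whole interval beyond 1.5-fold, or 2-fold. On counts simulated for both libraries (knockout over wild type, counting error only), 95.8% of the intervals of 16892 genes held the true ratio. No p-value was computed. Alternatives are listed with their effect below.

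Finger repeats (C, 2 to 4 residues, C, 12 residues, H, 3 to 5 residues, H) and a KRAB pattern were counted in translated GENCODE 29 coding sequences, in place of the planned RefSeq proteins. The KRAB pattern was adjusted on the sequences, without expression values. Shared sequence is the share of 50-base transcript windows found in another gene that does not overlap.

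Named members were the 15 highest and 15 lowest by the interval bound nearest to 1, the 10 with the highest mean RPKM, the most abundant and extreme member of each cluster, and members with a textbook role. Named cofactors were those called and the 4 most abundant. Members, clusters and lists were chosen with earlier results of these data known.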

Additional observations from a re-analysis of the deposited data

How the results depend on the processing

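The median log2 ratio of the members stayed above 0 under every alternative run for it, and no called value turned its direction. It was 0.23 as reported and 0.080 relative to the median of the other chromosome 19 genes, where it was 0.076 with and 0.080 without the KRAB pattern. The count of higher members, 33 as reported, was 14 beyond 2-fold, 56 without an interval and 63 from the deposited RPKM. It was 18 among the 119 members with under 1% shared windows, a smaller set whose median log2 ratio was 0.31. The count of lower members, 2 as reported, was 1 with total count scaling, upper quartile scaling, a 99% interval or under 1% shared windows. It was 0 beyond 2-fold, 4 with undivided counts, 6 from RPKM and relative to other chromosome 19 genes, and 8 without an interval. With members taken by symbol alone, which keeps the 4 RefSeq pseudogene rows, 34 were higher and 3 lower. For counts under another scaling, interval or measure no share over all genes was taken. Cofactors counted as lower were 0 beyond 2-fold and 2 relative to other chromosome 19 genes, and those counted as higher were 3 from RPKM. Values near 0 changed sign, the cofactor median from -0.03 to 0.05 with total count scaling, upper quartile scaling or RPKM and to 0.0093 with at least 200 reads, and the C9 median from 0.02 to -0.13 relative to other chromosome 19 genes. The cause of these moves was not tested beyond what each setting changes by construction. Other scalings moved the log2 ratios of ZNF146 and ZNF83, to 0.21 and 0.16 with total count scaling. The settings on shared windows, on overlapping rows, on symbols alone and on neighbours without zinc finger genes were chosen after seeing the data. No paired analysis was possible because each group has 1 library. Depth limits members with few fragments, such as ZNF536.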
